A study of Mus musculus with 2 samples.

Results

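The sprouty, SPRED, dual-specificity phosphatase and ETV genes that ERK signalling switches on were measured in ureters of mouse embryos that had lost Gata6 in the ureteric mesenchyme. The 10 members are Spry1, Spry2, Spry4, Spred1, Spred2, Dusp4, Dusp6, Etv1, Etv4 and Etv5, taken as every non-control probe whose gene name on the array is one of them. They are served by 14 of the 39429 probes, and all 10 were among the 19801 genes bright enough to test. Gata6cKO embryos were Tbx18(cre/+);Gata6(fl/fl), so that cre from the Tbx18 locus deletes the zinc finger transcription factor gene Gata6 in cells with a history of Tbx18. Controls were labelled Gata6(fl/?), with no cre. All embryos were NMRI mice at E14.5, and the tissue was the mechanically dissected ureter. There were 4 RNA samples on 2 arrays of 2 colours, and each array set 1 Gata6cKO RNA against 1 control RNA. Replicate 1 held RNA of males with the mutant in Cy5, and replicate 2 RNA of females with the mutant in Cy3, so sex and dye cannot be told apart between the arrays. The labels leave it unsaid whether an RNA was pooled or came from 1 embryo, so p-values do not reach beyond these samples. They rest on the spread between the 2 arrays. For each gene most of that spread is borrowed from the other genes tested (11.9 prior against 1 residual degree of freedom). Cre was present in every mutant and in no control, so deletion of Gata6 and the presence of cre in the Tbx18 locus cannot be told apart.

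Growth factors of the FGF, EGF and GDNF families bind receptor tyrosine kinases, which start a relay through RAS, RAF and MEK that activates the kinase ERK. ERK signalling turns on its own inhibitors: sprouty and SPRED proteins act upstream, near the receptor, RAS and RAF, and the phosphatases DUSP4 and DUSP6 remove the activating phosphates from ERK itself. ETV1, ETV4 and ETV5 form the PEA3 group of ETS transcription factors, and their transcripts are widely used as readouts of FGF signalling. In the urinary tract, Spry1 restrains the signal of GDNF through its receptor RET, and Etv4 and Etv5 act downstream of RET in the ureteric bud.

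Median spot intensity was 224 to 232 in Cy3 and 425 to 442 in Cy5, over local backgrounds of 23 to 24 and 83 to 85. Between 67.2% and 68.5% of spots were well above background in each dye, and no spot was saturated. The small number of arrays limits the precision. Urothelial and smooth muscle markers were measured in all 4 RNAs, as the label ureter requires: the uroplakin Upk1a had signals of 7633 and 5820 in control and 2494 and 2110 in Gata6cKO, and the smooth muscle actin Acta2 had 9168 and 4318 in control and 7204 and 3661 in Gata6cKO. Signals here are normalised intensities in arbitrary units, given for the male and then the female array, and they compare RNAs at 1 probe but not different probes.

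Dusp4 and Etv1 were lower in Gata6cKO, and no member was higher at the threshold used. A gene passed where limma gave an adjusted p under 0.05 over all genes tested. By this rule 2 of 10 members were lower, against 2.35% of all genes tested, and 0 of 10 were higher, against 2.2%. At an unadjusted limma p under 0.05, 3 members were lower, Dusp4, Etv1 and Etv5, against 6.1% of all genes tested, and 1 was higher, Spry2, against 5.26%. Both Gata6cKO levels lay below both control levels in 7 of 10 members (17.5% of all genes tested) and above them in 1 (15.9%). The Gata6cKO over control ratio, in log2, was below 0 on both arrays in 8 of 10 members, against 25.5% of all genes. The median log2 ratio of the members was -0.17, with -0.13 (male array) and -0.19 (female array), whereas the median of all genes tested was -0.0019. The members ranged from -0.48 for Etv1 to 0.24 for Spry2. These members were named with results of the same arrays known, so their counts are a description.

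**Figure D1:**
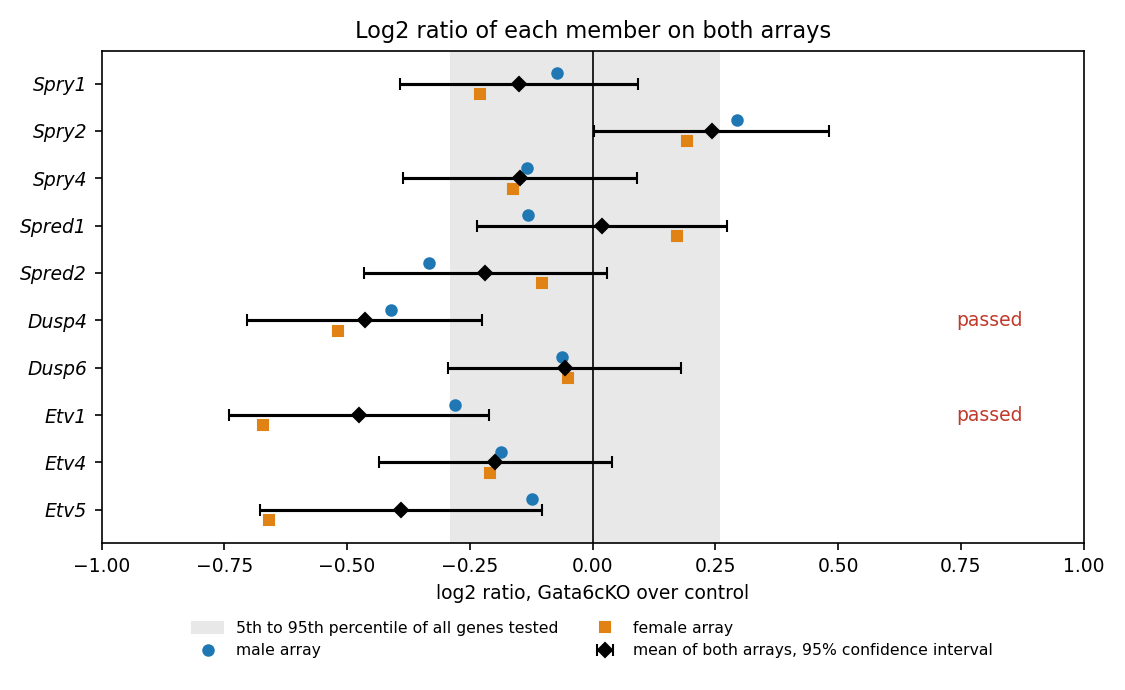
Log2 ratio of Gata6cKO over control (x axis) for each of the 10 members. Circles are the male array, squares the female array, diamonds their mean with the 95% confidence interval of the limma fit, and the grey band spans the 5th to 95th percentile of all 19801 genes tested; Dusp4 at -0.46 and Etv1 at -0.48 passed, and Spry2 at 0.24 is the member farthest to the right.

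The ERK phosphatases went separate ways in size. Dusp4, a nuclear phosphatase of ERK, had a signal of 253 and 280 in control and of 190 and 195 in Gata6cKO. Both mutant RNAs were lower than both controls, and the levels within each genotype lay close together. Its log2 ratio was -0.41 (male array) and -0.52 (female array), and -0.46 ± 0.11 in the fit (moderated SE, n = 2 arrays; 95% interval -0.70 to -0.22; limma adjusted p = 0.0286), a 1.38-fold lower level. The probe is 60 bases long and lies at chr8:35882045-35882104 (mm9, + strand), from base 1523 of the transcript that the array annotation names; its place relative to the coding sequence and UTRs was not determined here. Its first 30 bases, shown because the lower Dusp4 level rests on this probe alone, are:

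Dusp4 probe: aataacggcggtttccgctgccagagaaga

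Dusp6, the cytoplasmic ERK phosphatase and a common readout of FGF signals, had a signal of 15204 and 13718 in control and of 14551 and 13245 in Gata6cKO. The genotypes overlapped, and the difference within each array was small beside the difference between arrays. Its log2 ratio was -0.06 (male array) and -0.05 (female array), with a 95% interval of the mean from -0.29 to 0.18 (limma adjusted p = 1). A fall the size of the Dusp4 point estimate lies outside that interval. The difference between Dusp4 and Dusp6 was not tested.

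The Dusp4 log2 ratio moved with the signals it was computed from. It was -0.50 with no background subtraction, -0.70 with Agilent's processed signals and -0.71 in the deposited series values, over 1.5 times the size above, and Dusp4 passed in both. With median centring, no filter on dim probes, separate channels, or halved prior degrees of freedom (those by which limma borrows spread from other genes), it did not pass (adjusted p = 1, 0.0710, 0.0698 and 0.0993), at log2 ratios between -0.46 and -0.45.

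**Figure D2:**
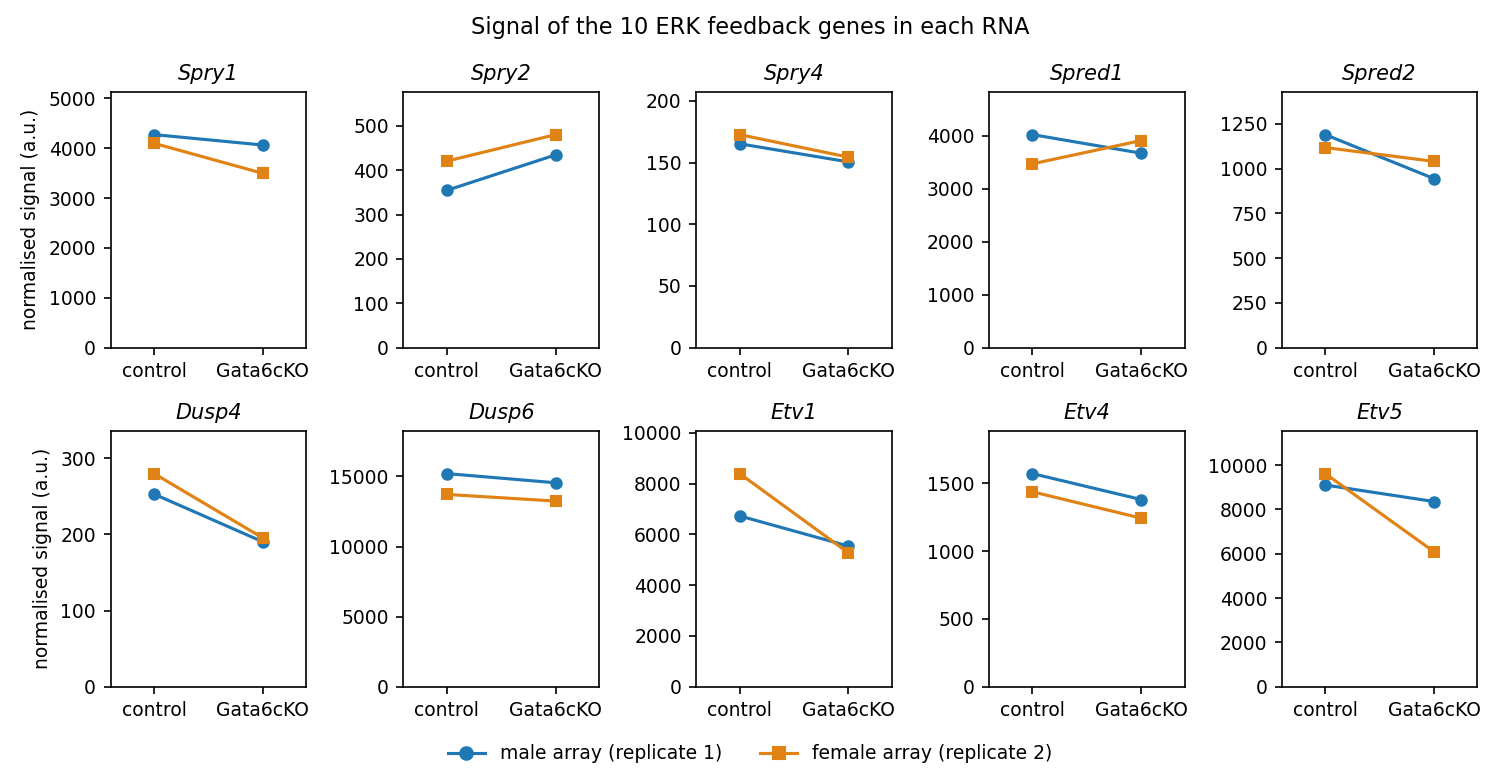
Normalised signal (y axis, arbitrary units, from 0) of each member in the control and the Gata6cKO RNA. Lines join the RNAs of 1 array, blue circles for the male and orange squares for the female array; the lines fall on both arrays in 8 panels, rise on both for Spry2, and for Spred1 fall on the male and rise on the female array.

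All 3 ETV genes had log2 ratios below 0 on both arrays, and Etv1 passed. Etv1, a PEA3 factor, had a signal of 6730 and 8399 in control and of 5543 and 5276 in Gata6cKO. The mutant levels were alike, and the controls differed from each other by more than the mutants did. The log2 ratio was -0.28 (male array) and -0.67 (female array), and -0.48 ± 0.12 in the fit (n = 2 arrays; 95% interval -0.74 to -0.21; limma adjusted p = 0.0441), a 1.39-fold lower level.

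Etv5, the relative that acts with Etv4 in the ureteric bud, had a signal of 9102 and 9617 in control and of 8356 and 6091 in Gata6cKO. Both mutant levels were below both controls, but the drop was much deeper on the female array. Its log2 ratio was -0.12 (male array) and -0.66 (female array), with a mean of -0.39 ± 0.13 (95% interval -0.68 to -0.10; limma adjusted p = 0.158), and it did not pass. Etv4 had a signal of 1571 and 1437 in control and of 1380 and 1243 in Gata6cKO. The levels did not overlap, and the ratios agreed closely between arrays, at -0.19 and -0.21. Its mean of -0.20 ± 0.11 (95% interval -0.44 to 0.04) did not pass, at a limma adjusted p of 0.649.

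The Etv1 log2 ratio was close to the threshold of its test. The call was lost with Agilent's processed signals (adjusted p = 0.0580), median centring (0.999), no filter on dim probes (0.171), separate channels (0.127) and halved prior degrees of freedom (0.165), while its log2 ratio stayed between -0.52 and -0.47 over all 11 settings. Etv5 passed under none of them, with adjusted p from 0.0876 to 1 and log2 ratios from -0.43 to -0.38.

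**Figure D3:**
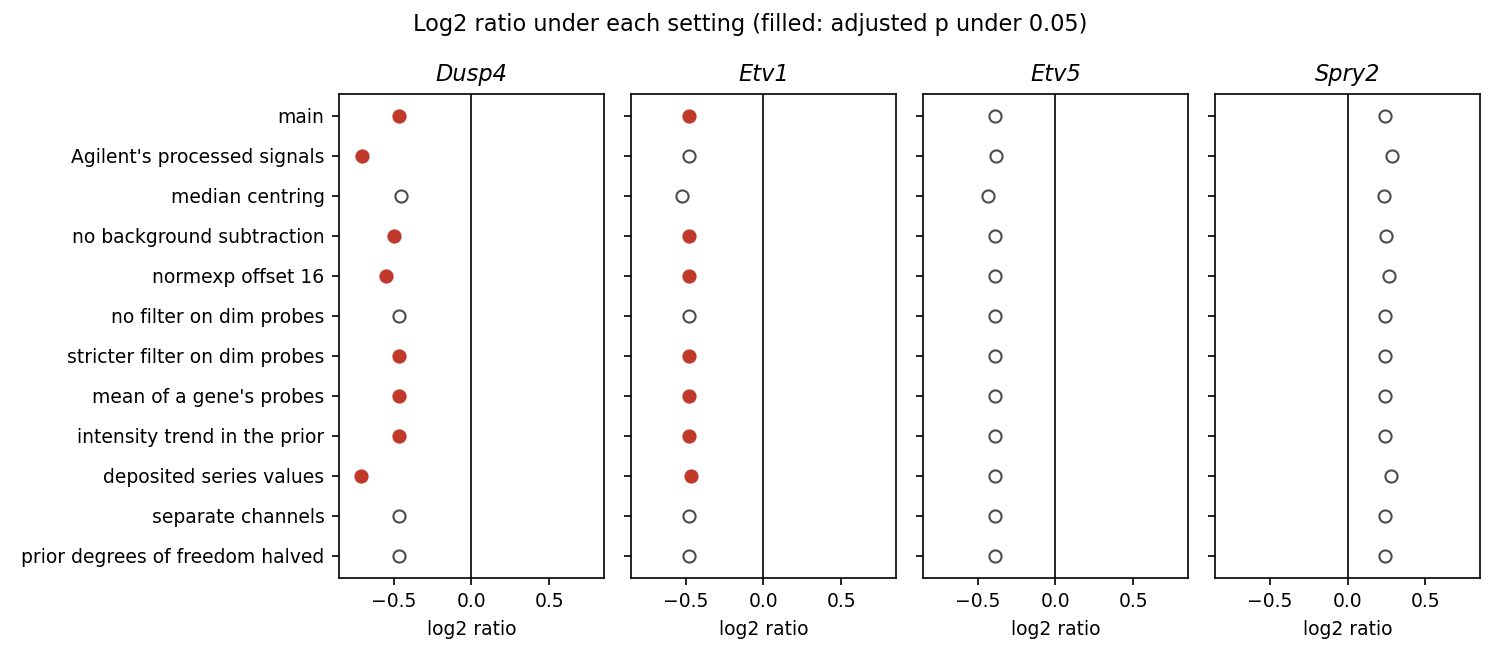
Log2 ratio (x axis) of Dusp4, Etv1, Etv5 and Spry2 under the main analysis and 11 other settings (y axis); filled points had a limma adjusted p under 0.05. Dusp4 is filled in 7 and Etv1 in 6 of the 11 other settings, Etv5 and Spry2 in none, and every point of a gene stays on 1 side of 0.

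Etv1 and Etv4 each have a second probe. The Etv1 value comes from the brighter probe at chr12:39593054-39593113 (mm9, + strand), from base 2382 of the transcript. A dim probe at chr12:39594622-39594681, from base 3950, was left out of the test because too few of its spots were well above background. These were 1 of 4 (male array) and 2 of 4 (female array) in Gata6cKO, and 2 of 4 and 4 of 4 in control. Neither genotype thus had the 3 spots needed on both arrays. The log2 ratio of the dim probe was -0.16 (male array) and -0.29 (female array). The other Etv4 probe gave -0.05 and -0.30, against -0.19 and -0.21 at the brighter one. The dim Etv1 probe is no check of the brighter one, since too few of its spots were well above background. The further Etv4 probe was below 0 on both arrays, like the first. The following stretches of 30 bases show what was hybridised; in Etv4 and Etv5 the capitals mark AATAAA, the signal for cleavage and polyadenylation, which 2 of the 14 probes hold.

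Etv1 brighter probe: tcacaggccagtagcattttatgtatctgg
Etv1 dim probe: gactctgacttactctaacggatcaaaaga
Etv4 brighter probe: atgccagaccttAATAAAgcctctgcttct
Etv5 probe: tgtactgtgtacAATAAAgaagattgcttt

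**Figure D4:**
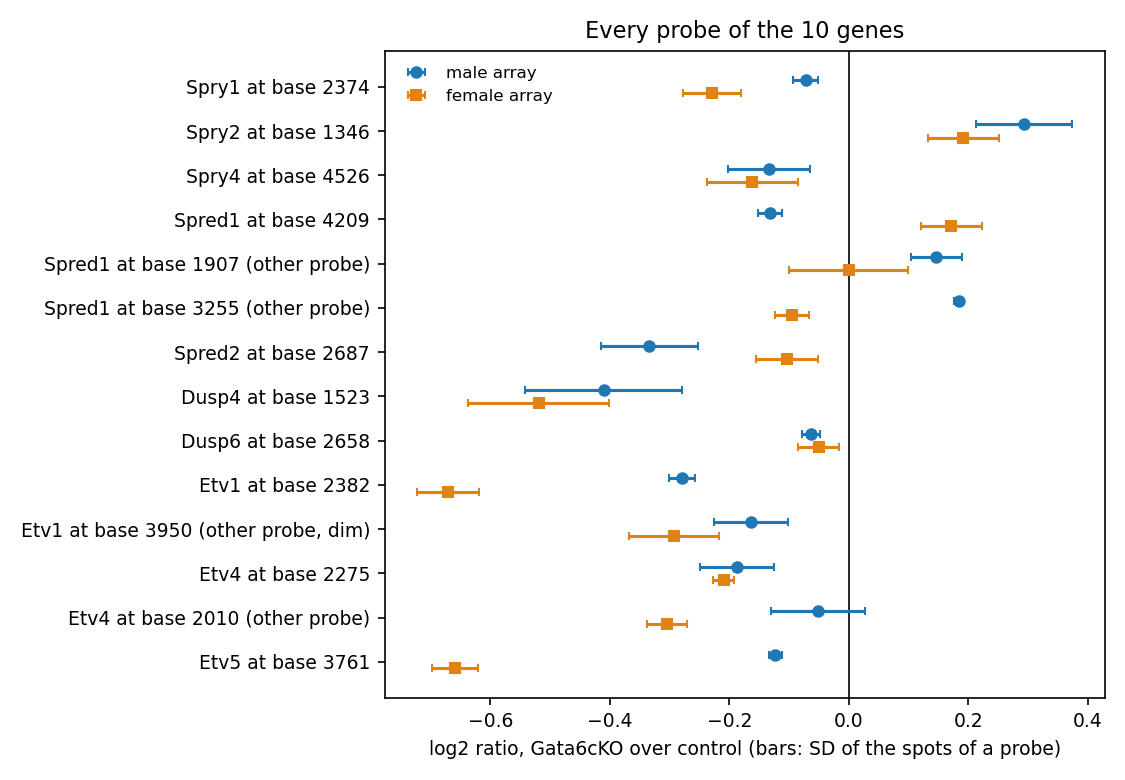
Log2 ratio of Gata6cKO over control (x axis) at all 14 probes of the members, each named by its gene and its first base in the transcript. Bars are the SD of the log2 ratio over the spots of a probe within an array, a technical spread; the probes of Spred1 lie on both sides of 0, and all probes of the ETV genes lie below it.

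The region before a gene's start was examined where the RefSeq promoter table (GRCm38.p6) holds one, which was the case for 7 of the 10 members with 9 windows of 300 bases, 250 before and 50 after the start. Dusp4, Etv4 and Spry4 were not among them. The GATA motif was searched as GATA preceded by A or T and followed by A or G, the AP-1 motif as TGANTCA and the ETS motif as CCGGAAGT, each on both strands. None of the 9 windows held any of these letters. Of all 32851 windows, 29.8% held the GATA, 7.81% the AP-1 and 3.89% the ETS letters, so 0 of 9 is near the background share for the last 2. Whether it differs from the GATA share was not tested. Etv1 and Etv5 have 2 windows each, and the share was not matched for base content. The 250 bases before the member starts were 44.4% to 71.2% G or C. For Etv1, the member that passed and has windows in the table, the 250 bases before each of its 2 listed starts are printed below, from chr12:38779832-38780081 and chr12:38783461-38783710 (GRCm38.p6, + strand). Capitals mark the ETS core GGAA or its reverse complement TTCC, which was chosen after the windows were seen; the first stretch has 2 and the second 1, and 93.4% of all windows hold at least 1 before the start. A match is a string of letters and not a binding site.

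Etv1 first start: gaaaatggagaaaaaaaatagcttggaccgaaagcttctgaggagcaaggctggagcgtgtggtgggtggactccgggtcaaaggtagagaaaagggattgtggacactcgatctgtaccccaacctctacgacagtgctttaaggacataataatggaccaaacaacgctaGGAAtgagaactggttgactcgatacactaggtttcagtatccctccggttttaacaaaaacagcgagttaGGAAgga
Etv1 second start: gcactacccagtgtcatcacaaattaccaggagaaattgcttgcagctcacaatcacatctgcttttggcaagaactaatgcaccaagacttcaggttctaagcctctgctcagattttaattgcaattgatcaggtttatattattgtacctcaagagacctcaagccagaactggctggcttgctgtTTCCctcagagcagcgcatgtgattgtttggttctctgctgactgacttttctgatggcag

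No sprouty gene passed the test. Sprouty proteins are inhibitors of receptor tyrosine kinase signals and are themselves induced by ERK. Spry1, which restrains RET in the ureteric bud, had a signal of 4275 and 4100 in control and of 4066 and 3497 in Gata6cKO. The mutants were lower than the controls, with a log2 ratio of -0.07 (male array) and -0.23 (female array) (mean -0.15 ± 0.11; 95% interval -0.39 to 0.09; limma adjusted p = 0.946).

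Spry2, the one member above control on both arrays, had a signal of 355 and 420 in control and of 434 and 480 in Gata6cKO. The groups did not overlap, though the lower mutant level was near the higher control. Its log2 ratio was 0.29 (male array) and 0.19 (female array) (mean 0.24 ± 0.11; 95% interval 0.0027 to 0.48; limma adjusted p = 0.429). Spry4, a sprouty gene that FGF signals induce, had a signal of 165 and 173 in control and of 151 and 154 in Gata6cKO. Its ratios were alike on the arrays, at -0.13 and -0.16 (mean -0.15 ± 0.11; 95% interval -0.39 to 0.09; limma adjusted p = 0.946). The Spry4 log2 ratio was -0.27 with Agilent's processed signals and -0.31 in the deposited series values, over 1.5 times as large, where the Spry1 log2 ratio was -0.14 and -0.15. The differences among the sprouty genes were not tested.

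The SPRED genes, relatives of the sprouty genes that hold back RAF, did not pass either. Spred2 had a signal of 1189 and 1117 in control and of 944 and 1040 in Gata6cKO. The mutants lay below the controls, with most of the distance on the male array, where the log2 ratio was -0.33, against -0.10 for the females (mean -0.22 ± 0.11; 95% interval -0.47 to 0.03; limma adjusted p = 0.584).

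Spred1 was the member whose arrays pointed opposite ways. Its signal was 4019 and 3469 in control and 3668 and 3907 in Gata6cKO, and the groups overlapped. The log2 ratio at this brightest of its 3 probes was -0.13 (male array) and 0.17 (female array) (mean 0.020 ± 0.12; 95% interval -0.23 to 0.27; limma adjusted p = 1). At the probe from base 3255 of the same transcript the order was turned, with 0.18 (male array) and -0.09 (female array). The probe for another transcript of the gene gave 0.15 and -0.00029. The disagreement between probes on 1 array was larger than the SD over their spots, which was at most 0.051 at those of the same transcript.

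Other genes of the pathway are set beside the members by lists. Most named genes are among the 4 of their list with the smallest p, and the exceptions are given with the processing. Among 12 tested FGF ligands and receptors, 2 were lower and none higher, with a list median of -0.05. Fgf10 and Fgf7, signals of mesenchyme to epithelium through the receptor FGFR2 isoform of epithelia, had log2 ratios of -0.76 ± 0.12 and -0.64 ± 0.11 (n = 2 arrays; limma adjusted p = 0.00156 and 0.00327). Fgf9, an FGF made largely by epithelia, and the receptor Fgfr1 had ratios of 0.24 each and did not pass, though both had an unadjusted limma p under 0.05. With the mean of its probes in place of the brightest, the Fgfr1 log2 ratio was 0.14.

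Of 18 other receptor tyrosine kinases and their ligands, 2 were lower and 2 higher (median -0.13). The lower ones were Egfr, the receptor of epidermal growth factor, at -0.65 ± 0.12, and Hgf, the ligand of the MET receptor, at -0.63 ± 0.11, and the Hgf log2 ratio was over 1.5 times as large with Agilent's processed signals and with the deposited series values. Those higher were Gdnf, the ligand that activates RET, at 1.59 ± 0.11, and Ret itself at 0.64 ± 0.11 (limma adjusted p between 4.43e-06 and 0.00695 for these 4). So the transcripts of this list that passed did not share a direction, and signalling through these receptors was not measured. None of 20 tested adaptors and kinases of the cascade passed (median 0.06). The 4 with the smallest p were the exchange factors Sos1 (-0.16) and Sos2 (0.12), the kinase Araf (0.14) and the adaptor Gab1 (0.13). By unadjusted limma p, none of these 4 was under 0.05, the smallest being 0.203.

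Among 16 tested further feedback inhibitors, 1 was lower and 4 were higher, with a median of 0.01. Dusp10, which acts mainly on the stress kinases p38 and JNK, had a log2 ratio of -0.83 ± 0.12 and so fell (limma adjusted p = 9.04e-04). Dusp8, another phosphatase of stress kinases, rose by 0.54 ± 0.11 and Dusp1, an immediate early phosphatase, by 0.70 ± 0.15, from 1.04 (male array) and 0.36 (female array). Lrig1, which promotes the removal of EGF receptors, rose by 0.53 ± 0.11, and its relative Lrig3, chosen after its values were seen because it completes the count, by 0.58 ± 0.12. So the phosphatases that passed did not share a direction.

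Among 17 other genes that ERK signals induce, 4 were higher and none lower (median 0.02). Fos and Egr1, immediate early transcription factors, rose by 1.23 ± 0.12 and 1.00 ± 0.12, the ephrin receptor Epha4 by 0.51 ± 0.11, and Ier2, another immediate early gene, by 0.49 ± 0.12 (limma adjusted p between 3.20e-05 and 0.0350). Dusp4 and Etv1 on one side and Fos and Egr1 on the other had ratios of opposite sign. Other genes of the list had an unadjusted limma p under 0.05 and did not pass: Plaur (-0.32) and Egr2 (-0.27) were below control on both arrays, Junb (0.34) and Ier3 (0.28) above. With the deposited series values, 1 gene of the list passed as lower and 5 as higher. Fewer genes of that list passed as higher, 2 in place of 4, with median centring, no filter on dim probes or halved prior degrees of freedom. Under the same 3 settings the higher genes among the feedback inhibitors numbered 0, 2 and 0 in place of 4, and with median centring no FGF ligand or other ligand or receptor was lower. Dusp10 and Ret did not pass with median centring either (limma adjusted p of the Dusp10 log2 ratio 0.0626 and of the Ret log2 ratio 0.424). None of 11 other ETS factors passed (median -0.11). The 4 with the smallest p were the epithelial factor Elf3 at -0.41, with -0.05 (male array) and -0.78 (female array), the endothelial factor Erg at -0.31, the epithelial factor Elf5 at 0.30 and Elk4 at 0.25. All 4 had an unadjusted limma p under 0.05, and Elf3 and Erg passed with the deposited series values. The Elk4 log2 ratio was only 0.083 with the mean of its probes in place of the brightest.

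**Figure D5:**
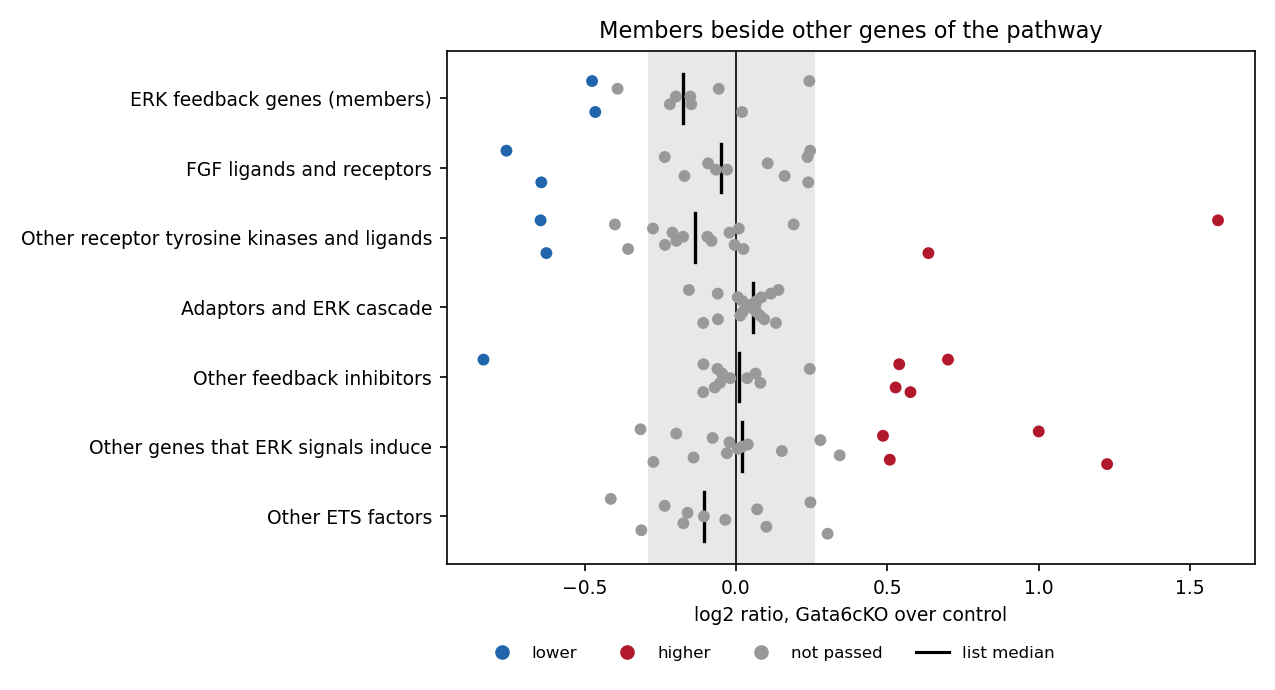
Log2 ratio of Gata6cKO over control (x axis) of each tested gene in the member set and 6 other lists of the pathway. Blue points passed as lower, red points as higher, grey points did not pass, black bars are list medians and the grey band spans the 5th to 95th percentile of all genes tested; the member median is -0.17, the cascade list has no coloured point and the list of ERK-induced genes has 4 red ones.

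Markers of several cell types that a dissected ureter can hold moved on the same arrays. In bulk RNA, fewer cells of a type and less RNA per cell cannot be told apart. Urothelial markers were lower in 9 of 15 cases and higher in none, with Upk1b at -1.98 and Upk1a at -1.54. Their summed signal was 272760 and 256300 in control and 208280 and 188570 in Gata6cKO, so that the groups did not overlap. Markers of neurons and glia were higher in 9 of 12 cases and lower in none, with Nefm at 1.83 and Nefl at 1.69, and their summed signal was 97519 and 87944 in control and 106950 and 115740 in Gata6cKO. Smooth muscle markers were lower in 4 of 7 cases and higher in none, with Cnn1 at -1.51 and Myocd at -1.33. Acta2 (-0.29), Tagln (-0.15) and Des (0.28) did not pass. Des was above control on both arrays, at 0.45 (male array) and 0.11 (female array), with an unadjusted limma p of 0.0348. Tagln was at -0.46 (male array) and 0.15 (female array). The smooth muscle markers summed to 32410 and 19736 in control and 20527 and 14747 in Gata6cKO. The sum was lower in Gata6cKO within each array, and the overlap is between the male Gata6cKO and the female control sum.

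Of 5 markers of the ureteric bud tip, where Etv4, Etv5 and Spry1 are known to act, 2 were higher, Ret at 0.64 and Wnt11, a ligand of the tip, at 0.48. Their summed signal was 7438 and 8139 in control and 8410 and 8722 in Gata6cKO. Of 4 tested mesothelial markers, 3 were lower, but Upk3b (-1.15) and Krt19 (-0.86) stand in the urothelial list too, which leaves Msln, at -1.49, and the higher one, Wt1 at 1.22, stands in the nephron list. The Upk3b log2 ratio was -2.32 with Agilent's processed signals and -2.27 with the deposited series values. Fibroblast and mesenchyme markers were lower in 3 of 8, with Dpt at -1.20, and higher in 1, Aldh1a2 at 1.18. Red cell markers were lower in 4 of 6, skeletal muscle markers higher in 4 of 6 tested and nephron and kidney stroma markers higher in 4 of 7. Endothelial markers were lower in 1 of 6, Tek, a receptor tyrosine kinase of endothelium, at -0.55, and none of 6 macrophage markers passed, with 1, C1qa, at an unadjusted limma p under 0.05. Several of these counts shrank under other settings. Lower red cell markers numbered 0 with median centring, no filter on dim probes or halved prior degrees of freedom, and 1 with separate channels. Higher skeletal muscle markers numbered 1 with median centring and 0 with separate channels. Higher nephron and kidney stroma markers numbered 1 with median centring, no filter or halved prior degrees of freedom, and 2 with separate channels. Higher bud tip markers numbered 0 with median centring and 1 with the other 3 of these settings, Tek passed in none of the 4, and lower fibroblast and mesenchyme markers numbered 1 with median centring. Ckm of skeletal muscle and Lrrn4 of mesothelium were too dim to test. The part of these cell types in the member values was not tested.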

How the data were processed

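Intensities of every spot were taken from the deposited scanner files, which give, per the file headers, the mean spot signal, the median local background and a processed signal in each dye; the authors made them with Agilent Feature Extraction 10.7.3.1, per the submitters' processing notes. The deposited series values are a score: a linear fold with a sign, Gata6cKO against control; in log2, Pearson r with the processed ratios was 0.985 and 0.980. There were 0 unused per-sample columns.

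In R 4.3.3 with limma 3.58.1 and statmod 1.5.0, background was corrected by normexp (offset 50) and ratios by loess within arrays, with control and outlier spots at weight 0. Probes stayed in (26200 of 39429) if, in 1 genotype, 3 or more of the 4 spots exceeded background clearly on both arrays, and the brightest stood for its gene. The ratio was fitted with lmFit and eBayes (1 residual and 11.9 prior degrees of freedom), sign turned on the dye-swapped array, with Benjamini-Hochberg adjustment over 19801 genes. On simulated data of 2 arrays the fit recovered large changes. Its prior degrees of freedom varied widely and the share of false calls was above the threshold in many draws, so adjusted p-values near the threshold are uncertain. The simulation drew normal errors and a smaller share of changed genes than was called here, so its share of false calls need not hold for these data. Levels are average intensities, made equal in distribution between arrays, plus or minus the ratio's part. Symbols were updated through RefSeq (28328 probes matched, 1602 changed); probe positions are mm9 per the file headers.

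The members and lists were chosen with earlier results of these data known. Every member was named. In each pathway list the 4 tested genes with the smallest p were named, and in each cell type list up to 2. Lrig3, Plaur, Egr2, Junb, Ier3, Acta2, Tagln, Des, Krt19, Msln, Ckm and Lrrn4 were named outside this rule after the values were seen. The 11 other settings are under the closing section.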

Additional observations from a re-analysis of the deposited data

Results flagged for a closer look

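At the brightest of its 3 probes, Spred1 had log2 ratios of opposite sign on the male and the female array, -0.13 and 0.17, a male minus female difference of log2 ratios of -0.30. Sex, dye and embryo differ together between those arrays, 1 array stands for each sex, and the difference was not tested. The probe from base 3255 of the same transcript had the reverse signs, 0.18 and -0.09, and the third gave 0.15 and -0.00029, so the direction holds at 1 of 3 probes.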

How the results depend on the processing

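The members lower numbered 2 in the main analysis and in 6 of 11 other settings, 1 with Agilent's processed signals, and 0 with median centring, no filter on dim probes, separate channels and halved prior degrees of freedom (the last chosen after seeing the data). No member was higher in any of them. In the same settings the count of all genes lower moved from 465 to 100 with median centring, 229 with no filter, 279 with separate channels and 222 with halved prior degrees of freedom, and rose to 795 with the deposited series values. The count of genes higher moved from 436 to 90, 248, 284, 244 and 672 in that order. The prior degrees of freedom, estimated from genes with 1 residual degree each, were 11.9 in the main analysis, 4.55 with no filter, 6.09 with separate channels, 64.5 with the deposited values and infinite with median centring, which had the fewest calls, so calls did not simply follow them. No member changed direction in 11 settings except Spred1, at -0.019 with median centring against 0.020; the cause was not tested. Leaving out either replicate leaves 1 array and no test; the remaining ratios are the array values in the report. The fit on within-array ratios is itself the paired analysis; separate channels is the form not built on ratios. Both arrays lie on 1 slide, per the file headers. Dim probes such as Dusp4 and Spry4 depend on the normexp offset: with an offset of 16 their log2 ratios were -0.55 and -0.19.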
